A study of Homo sapiens with 8 samples.

Results

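Chaperonins are barrel-shaped chaperones that take an unfolded protein into a closed chamber and use ATP to let it fold there. The 10 genes described here encode the subunits of both human chaperonins: TCP1, CCT2, CCT3, CCT4, CCT5, CCT6A, CCT7 and CCT8 for the ring CCT (also TRiC) of the cytosol, and HSPD1 (HSP60) and HSPE1 (HSP10) for the barrel and its lid in mitochondria. They were chosen by gene symbol, matched to Ensembl gene IDs, and are 10 of the 63677 gene IDs counted. In CCT each subunit has its own fixed place in the ring, and the complex is known for folding actin and tubulin. HSPD1 and HSPE1 fold proteins imported into the mitochondrial matrix, and in human cells they are textbook targets of HSF1, the transcription factor of the heat shock response.

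The RNA was taken from PC9 cells, an established human line of lung adenocarcinoma, and its brain metastatic subline PC9-BrM3, with 2 libraries in each of 4 groups. In the shHSF1 group PC9-BrM3 cells carried Tet-pLKO-shHSF1, an integrated lentiviral plasmid that makes a hairpin against HSF1 (1 hairpin clone) when doxycycline is added, and in the shNTC group they carried Tet-pLKO-shNTC, with a non-target hairpin. Both groups were selected with puromycin for 5 days and given 500 ng/mL doxycycline for 48 hours before RNA was taken. The PC9-BrM3 and PC9 Parental groups were untransduced, without a hairpin, and were grown for 48 hours before RNA was taken. The shHSF1 and shNTC libraries were compared with each other, as were PC9-BrM3 and PC9 Parental. The 2 pairs were sequenced in different lanes, so pair and lane cannot be told apart and no test was run across them. Nothing in the labels says that the 2 libraries of a group came from separate cultures, so p-values measure only the spread between these libraries.

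Total counts per library ran from 33550140 to 56715336. HSF1 itself was at 16.3 and 14.1 CPM (counts relative to the library size, scaled by TMM) in shHSF1 libraries, against 184.7 and 188.8 CPM in shNTC libraries. PC9-BrM3 replicate 2 stood apart: 17.3% of its counts lay on the mitochondrial genome, against 1.40% to 6.23% in the other 7 libraries. In CPM without TMM scaling, transcripts under 1000 bases were lower in it than in PC9-BrM3 replicate 1 by a median of 0.66 on the log2 scale (255 genes). Those of 2000 bases or more were lower by 0.23 (7737 genes). TMM scaling, with factors of 1.058 for replicate 1 and 0.871 for replicate 2, raises replicate 2 relative to replicate 1 in every length class. That shift is smaller than the fall of the class under 1000 bases, which therefore stays lower in the scaled values. It is larger than the fall of the class of 2000 bases or more, which does not. The medians themselves show the gap between the classes and not the size of a fall in the scaled values. HSPE1, with a longest coding transcript of 950 bases, is in the first class, and every other chaperonin gene is in the last. Values of the subline comparison that this library bears on are therefore also given without it. Such a fit leaves 1 PC9-BrM3 library, so a p-value from it holds no spread between PC9-BrM3 libraries and is no firmer than that of the full test. The epithelial markers EPCAM, KRT8, KRT18, KRT19, KRT7 and CDH1 were present in all libraries. Without TMM scaling they summed to 7210 to 7570 CPM in shHSF1, 5470 to 5810 in shNTC, 3270 to 4320 in PC9-BrM3 and 3250 to 3550 in PC9 Parental. In the knockdown KRT8, KRT18 and CDH1 rose with the hairpin (log2 changes 0.63, 0.70 and 0.41; edgeR adjusted p = 1.7e-05, 1.23e-05 and 0.000382), and their part in the chaperonin results was not tested. Of the markers of other cell types, PECAM1, DCN and LUM were at 0 counts in every library, but the endothelial marker CDH5 (19.6 to 25.5 CPM in shHSF1, 38.7 to 45.9 CPM in shNTC) and the myelin gene MBP (100.2 to 107.4 and 127.2 to 132.8 CPM) were not, and both were lower with the hairpin (edgeR adjusted p = 0.000503 and 0.0024). The other endothelial marker called, VWF, went the other way, at 0.647 and 0.910 CPM in shHSF1 libraries, against 0.321 and 0.420 CPM in shNTC libraries (edgeR adjusted p = 0.0375; not called by DESeq2). CDH5 was also lower in PC9-BrM3, at 31.4 and 24.3 CPM, against 53.3 and 48.9 CPM in PC9 Parental (edgeR adjusted p = 0.048, and 5.61e-05 without PC9-BrM3 replicate 2). The 12 markers of other cell types, again without TMM scaling, summed to 124.0 to 136.0 CPM in shHSF1 and 165.0 to 177.0 in shNTC. They summed to 111.0 to 150.0 in PC9-BrM3 and 212.0 to 214.0 in PC9 Parental, and their part in the results was not tested.

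HSPD1 and HSPE1 are neighbours on chromosome 2, on opposite strands, and by their RefSeq transcript starts they are transcribed away from each other. On GRCh37, the build of the counts, the annotated span of HSPD1 runs past these starts and contains HSPE1: HSPD1 covers chr2:198351305-198381461 on the minus strand and HSPE1 covers chr2:198364718-198368181 on the plus strand. Promoter windows from RefSeq (GRCh38.p14), each running from 250 bases before a transcript start to 50 bases after it, were found for 9 of the 10 genes, in 12 windows. CCT6A was not among them. They were searched on both strands for the heat shock element, to which HSF1 binds: the 2-unit forms GAANNTTC and TTCNNGAA, in which N is any base, and the 3-unit form and its reverse complement, which extend a 2-unit form by any 2 bases and a further unit, so that the units alternate. A 3-unit match therefore always contains and overlaps both 2-unit forms. The windows of 3 genes are printed, 5′ to 3′ on the gene's own strand, with every matched unit in capitals: the HSPD1 window that holds a 3-unit match, the HSPE1 window beside it, and the TCP1 window, where a 2-unit match was found.
HSPD1: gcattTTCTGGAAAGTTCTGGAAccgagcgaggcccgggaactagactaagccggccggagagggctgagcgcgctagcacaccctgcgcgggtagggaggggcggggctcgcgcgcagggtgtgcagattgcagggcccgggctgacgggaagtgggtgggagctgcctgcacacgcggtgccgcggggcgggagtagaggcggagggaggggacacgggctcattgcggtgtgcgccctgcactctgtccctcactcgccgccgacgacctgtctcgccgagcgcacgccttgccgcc
HSPE1: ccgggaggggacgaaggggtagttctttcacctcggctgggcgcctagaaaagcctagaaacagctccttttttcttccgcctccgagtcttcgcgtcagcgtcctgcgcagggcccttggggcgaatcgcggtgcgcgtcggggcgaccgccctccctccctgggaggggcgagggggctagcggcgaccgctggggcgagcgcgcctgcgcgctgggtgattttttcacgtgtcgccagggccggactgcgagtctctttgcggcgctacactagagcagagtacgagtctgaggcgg
TCP1: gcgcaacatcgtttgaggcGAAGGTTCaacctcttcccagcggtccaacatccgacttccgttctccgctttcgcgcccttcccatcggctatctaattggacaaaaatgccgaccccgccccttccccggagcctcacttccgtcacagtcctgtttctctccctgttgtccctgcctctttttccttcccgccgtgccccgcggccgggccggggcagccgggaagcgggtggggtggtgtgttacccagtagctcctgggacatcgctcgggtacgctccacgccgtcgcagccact

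On GRCh38.p14 the HSPD1 window is chr2:197499791-197500090 on the minus strand, the HSPE1 window chr2:197500129-197500428 on the plus strand, and the TCP1 window chr6:159789553-159789852 on the minus strand.

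The match in HSPD1 is a run of 4 alternating units, 228 to 245 bases before that HSPD1 start. It lies 294 bases before the HSPE1 start, and so 43 bases outside the HSPE1 window, which held none of the forms searched. HSPD1 has another annotated start nearer to HSPE1, 105 bases from it, and the run is 189 bases downstream of that start. A 3-unit match was found in 172 of 35116 windows of all genes (0.490%), and a 4-unit run in 12 (0.0342%). Among the 9 chaperonin genes with a window, HSPD1 was the only gene with a 3-unit match. The 2-unit forms were found also in the windows of TCP1, CCT2 and CCT4. Across all windows GAANNTTC was present in 6.77% and TTCNNGAA in 7.74%. A match describes the letters in a window and is not evidence of binding.

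Both genes of the mitochondrial chaperonin fell with the HSF1 hairpin in the test on the 4 libraries of the knockdown, and the fold was larger for the lid gene than for the barrel gene. HSPE1 was at 29.5 and 30.9 CPM (1094 and 1051 counts) in shHSF1 libraries, against 58.7 and 66.6 CPM (2743 and 2380 counts) in shNTC libraries. Both shHSF1 libraries were below both shNTC libraries, and the level was 2.07-fold lower, a log2 change of -1.05 ± 0.08 (SE; edgeR adjusted p = 7.99e-06). HSPD1 was at 842.4 and 871.6 CPM in shHSF1 libraries, against 1099 and 1071 CPM in shNTC libraries, again without overlap. It was 1.27-fold lower, a log2 change of -0.34 ± 0.06 (SE; edgeR adjusted p = 0.000876). For each count of HSPE1 there were 28.6 and 28.3 counts of HSPD1 in shHSF1 libraries and 18.7 and 16.1 in shNTC libraries. With all 8 libraries in 1 fit, which share 1 estimate of the spread, neither gene passed (edgeR adjusted p = 0.103 for HSPD1 and 0.244 for HSPE1). Among the 8 are the PC9-BrM3 libraries, where HSPE1 was at 63.3 and 11.2 CPM. The difference between the fold changes of HSPD1 and HSPE1 was not tested. The mean log2 CPM of HSPD1 and HSPE1 minus that of the 8 CCT genes was -1.50 and -1.51 in shHSF1 libraries, against -1.04 and -0.95 in shNTC libraries, without overlap. Most of that gap came from HSPE1. For HSPE1 alone the value was -3.92 in both shHSF1 libraries, against -3.16 and -2.96 in shNTC libraries. For HSPD1 alone it was 0.92 and 0.90, against 1.07 and 1.05. HSPD1 (-0.34) fell no further than CCT3 (-0.44), CCT6A (-0.40) or TCP1 (-0.35). In bulk RNA such as this, fewer cells that make a transcript and less of it per cell cannot be told apart.

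**Figure D1:**
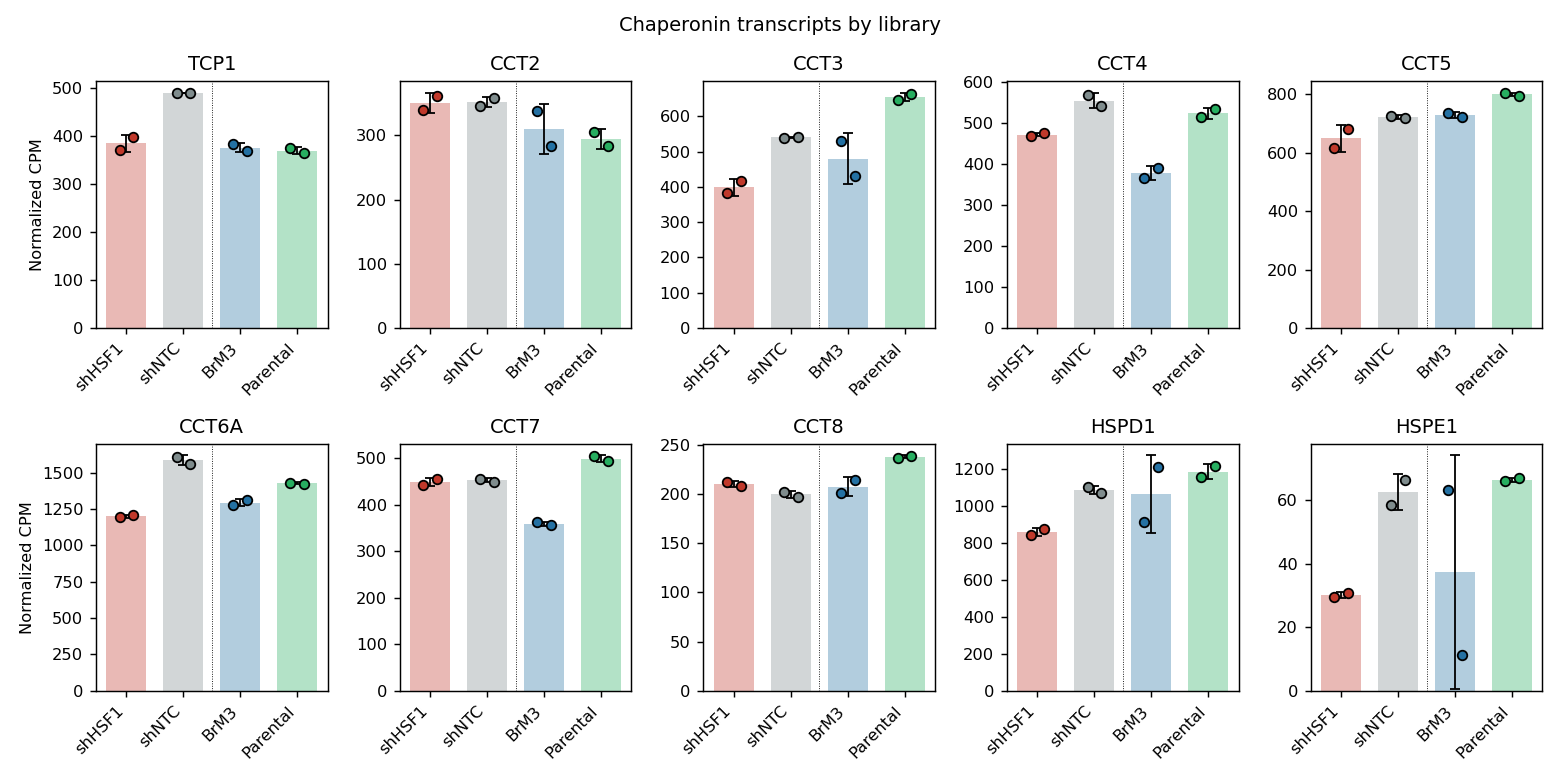
Normalized CPM of the 10 chaperonin genes, 1 panel a gene, for shHSF1, shNTC, PC9-BrM3 and PC9 Parental from left to right. Points are libraries, bars their mean and whiskers the SD (n = 2), with vertical axes from 0 that differ between panels; the 2 HSPE1 points of PC9-BrM3 lie at 63.3 and 11.2 CPM.

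HSPE1 has 26 annotated pseudogenes, 16 of them with counts, and their counts were large beside its own. Their summed count came to between 39.0% and 272% of the HSPE1 count of the same library, the top value being that of PC9-BrM3 replicate 2. Reads shared with a near-identical copy can be lost or assigned to it, so the HSPE1 level is uncertain to that extent. HSPE1P4, a pseudogene locus, was at 6.31 and 6.69 CPM in shHSF1 libraries, against 12.5 and 12.9 CPM in shNTC libraries (1.95-fold lower; edgeR adjusted p = 0.000119). HSPE1P2, another such locus, was at 6.39 and 7.54 CPM in shHSF1 libraries, against 14.8 and 14.2 CPM in shNTC libraries (2.08-fold lower; edgeR adjusted p = 9.15e-05). HSPE1 and all 26 pseudogenes added together came to 44.6 ± 2.2 CPM in shHSF1 libraries and 91.4 ± 5.3 CPM in shNTC libraries (SD, n = 2 each), a sum 2.05-fold lower with the hairpin. The fold was 2.07 for HSPE1 alone and 2.05 with the copies added. For HSPD1 the pseudogenes came to 1.53% to 3.01% of its own count. HSPE1-MOB4, a read-through gene on the same strand, shares 192 of the 1977 exon bases of HSPE1 (9.71%) and had 0 counts in every library; reads in shared bases go to neither gene in the counting used.

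**Figure D2:**
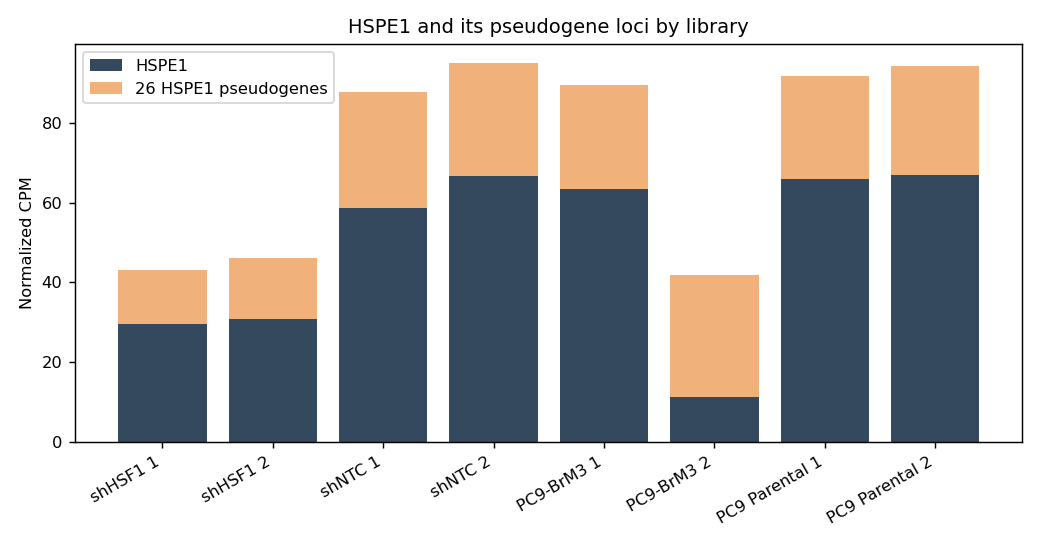
Normalized CPM of HSPE1 (dark) with its 26 pseudogene loci stacked on it (light), 1 bar a library. The shHSF1 stacks reach 43.0 and 46.1 CPM and the shNTC stacks 87.6 and 95.1; in PC9-BrM3 replicate 2 the HSPE1 part is 11.2 CPM of 41.8.

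In the CCT ring, 4 of the 8 subunits fell with the HSF1 hairpin and none passed the test as higher. The 4 were CCT3, CCT6A, TCP1 and CCT4. With HSPD1 and HSPE1, 6 of the 10 chaperonin genes were lower, against 23.5% of the 16840 genes tested, and 0 were higher, against 22.2%; 0 members were higher also at an unadjusted p under 0.05 and by DESeq2. In all, 45.7% of genes passed in 1 direction or the other, so a call alone was common in this comparison. The median log2 change was -0.29 over the 10 genes and -0.19 over the 8 CCT genes, against 0.006 over all genes tested. The groups did not overlap, with shHSF1 lower, for 7 of the 10 genes, against 36.7% of all genes, and with shHSF1 higher for 1 (CCT8), against 36.7%.

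CCT3, the gamma subunit, was at 381.7 and 415.5 CPM in shHSF1 libraries, against 539.3 and 540.3 CPM in shNTC libraries. It was 1.35-fold lower, a log2 change of -0.44 ± 0.06 (SE; edgeR adjusted p = 0.000279). CCT6A, the zeta subunit, was at 1194 and 1207 CPM in shHSF1 libraries, against 1609 and 1561 CPM in shNTC libraries, and was 1.32-fold lower (edgeR adjusted p = 0.000301). Neither gene's groups overlapped. TCP1, the alpha subunit, was at 371.5 and 397.4 CPM in shHSF1 libraries, against 489.5 and 489.9 CPM in shNTC libraries, and was 1.27-fold lower (edgeR adjusted p = 0.000866). CCT4, the delta subunit, was at 469.5 and 475.6 CPM in shHSF1 libraries, against 569.1 and 542.3 CPM in shNTC libraries, and was 1.18-fold lower (edgeR adjusted p = 0.0072). TCP1 and CCT4 also separated the groups completely, CCT4 by the smallest margin of the 4. Its call was lost with all 8 libraries in 1 fit (edgeR adjusted p = 0.0931) and without shHSF1 replicate 1 (log2 change -0.22; edgeR adjusted p = 0.0504).

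The other 4 subunits did not pass. CCT5, the epsilon subunit, was at 616.2 and 682.5 CPM in shHSF1 libraries, against 726.5 and 719.1 CPM in shNTC libraries, so the groups did not overlap, but the edgeR adjusted p was 0.0747. Without shHSF1 replicate 2, the higher of its libraries, CCT5 passed (log2 change -0.23, edgeR adjusted p = 0.028). CCT2, the beta subunit, was at 338.9 and 361.6 CPM in shHSF1 libraries and 346.3 and 357.5 CPM in shNTC libraries. CCT7, the eta subunit, was at 442.5 and 455.3 CPM in shHSF1 libraries and 455.9 and 450.0 CPM in shNTC libraries. For both genes the libraries of the 2 groups were interleaved, with log2 changes of -0.007 ± 0.059 and -0.013 ± 0.055 (SE) whose sign turned with upper-quartile scaling (0.06 and 0.054). CCT8, the theta subunit, was at 212.8 and 208.3 CPM in shHSF1 libraries, against 202.3 and 197.3 CPM in shNTC libraries. Its log2 change was 0.08 ± 0.06 (SE; edgeR adjusted p = 0.295). With upper-quartile scaling, which moved the median of all genes to 0.074, CCT8 passed as higher (0.14, edgeR adjusted p = 0.0484).

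**Figure D3:**
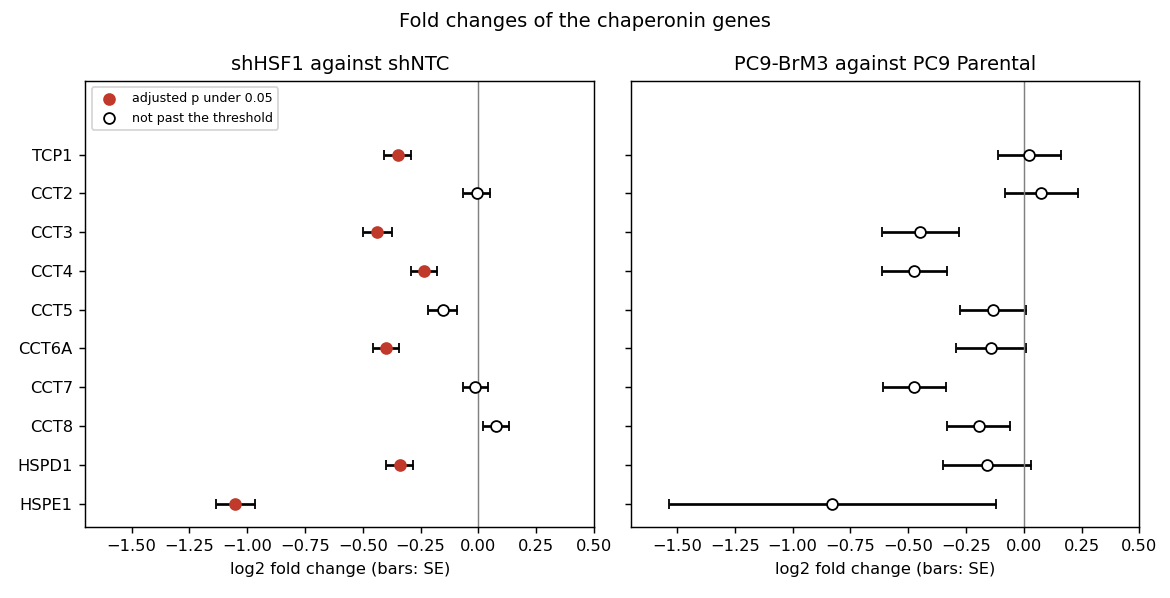
Log2 fold changes of the 10 chaperonin genes, shHSF1 over shNTC on the left and PC9-BrM3 over PC9 Parental on the right, with SE derived from the edgeR F test as bars (4 libraries a comparison). Filled points passed an adjusted p of 0.05: 6 genes on the left and 0 on the right, where the HSPE1 bar is the widest (-0.83 ± 0.71).

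Subunits were compared with each other per length, as TPM, a share of all transcripts made from the counts and each gene's exon length. CCT6A was the most abundant ring subunit in every group: 1234 ± 31 TPM in shHSF1, 1546 ± 97 in shNTC, 1061 ± 313 in PC9-BrM3 and 1422 ± 63 in PC9 Parental (SD, n = 2 each). By the group means CCT4 followed it in every group (669.3, 747.5, 425.6 and 720.7 TPM in that order of groups). CCT6A and CCT4 did not overlap in any group. With the longest coding transcript as the length in place of all exon bases, a choice made after the data were seen, CCT6A stayed on top but CCT4 did not stay second: in shNTC, for example, CCT3 was at 713.8 TPM and CCT4 at 627.2.

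CCT8 was the lowest subunit in shHSF1 (252.7 ± 0.7 TPM), shNTC (227.7 ± 13.5 TPM) and PC9-BrM3 (198.2 ± 53.4 TPM). In PC9 Parental CCT2 was lower still (264.6 ± 1.4 TPM) than CCT8 (276.8 ± 14.9 TPM), an order that turned with transcript length. In shHSF1 the order was CCT6A, CCT4, CCT7, CCT5, CCT3, CCT2, TCP1 and CCT8. CCT5 and CCT3 overlapped there, as did CCT2 and TCP1, while other neighbours were separate. In shNTC the order was CCT6A, CCT4, CCT3, CCT7, CCT5, TCP1, CCT2 and CCT8, and CCT3, CCT7 and CCT5 were neighbours that overlapped. CCT3 was thus at place 5 in shHSF1 and place 3 in shNTC, and TCP1 at place 7 in shHSF1 and place 6 in shNTC. In PC9-BrM3, where the 2 libraries were far apart, CCT6A stood clear of CCT4 and every other neighbouring pair overlapped. In PC9-BrM3 replicate 1 alone the order was CCT6A, CCT3, CCT4, CCT5, CCT7, CCT2, TCP1 and CCT8. In PC9 Parental the order was CCT6A, CCT4, CCT3, CCT7, CCT5, TCP1, CCT8 and CCT2, with overlaps between CCT7 and CCT5 and between TCP1 and CCT8.

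The highest subunit was 4.80 and 4.96 times the lowest in the shHSF1 libraries, and 6.81 and 6.77 times in the shNTC libraries. Summed over the ring, CCT came to 4139 ± 181 TPM in shHSF1 and 4672 ± 257 TPM in shNTC (SD, n = 2 each). It came to 3284 ± 1080 TPM in PC9-BrM3 and 4681 ± 221 TPM in PC9 Parental. PC9-BrM3 replicate 1 was at 4047 TPM and replicate 2 at 2520 TPM, in which mitochondrial genome counts take a larger share of the total. HSPD1 was at 809.4 ± 33.9 TPM in shHSF1, 972.8 ± 58.2 in shNTC, 778.0 ± 93.3 in PC9-BrM3 and 1085 ± 90 in PC9 Parental, so it was below CCT6A and above CCT4 in each of the 4. HSPE1 was at 61.2 ± 3.1 TPM in shHSF1, 120.2 ± 5.7 in shNTC, 69.9 ± 78.8 in PC9-BrM3 and 130.6 ± 7.4 in PC9 Parental. With the longest coding transcript as the length, HSPE1 was higher, at 93.2, 187.2, 116.9 and 213.8 TPM in that order of groups. Reads lost to its pseudogenes can be missing from all of these values.

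**Figure D4:**
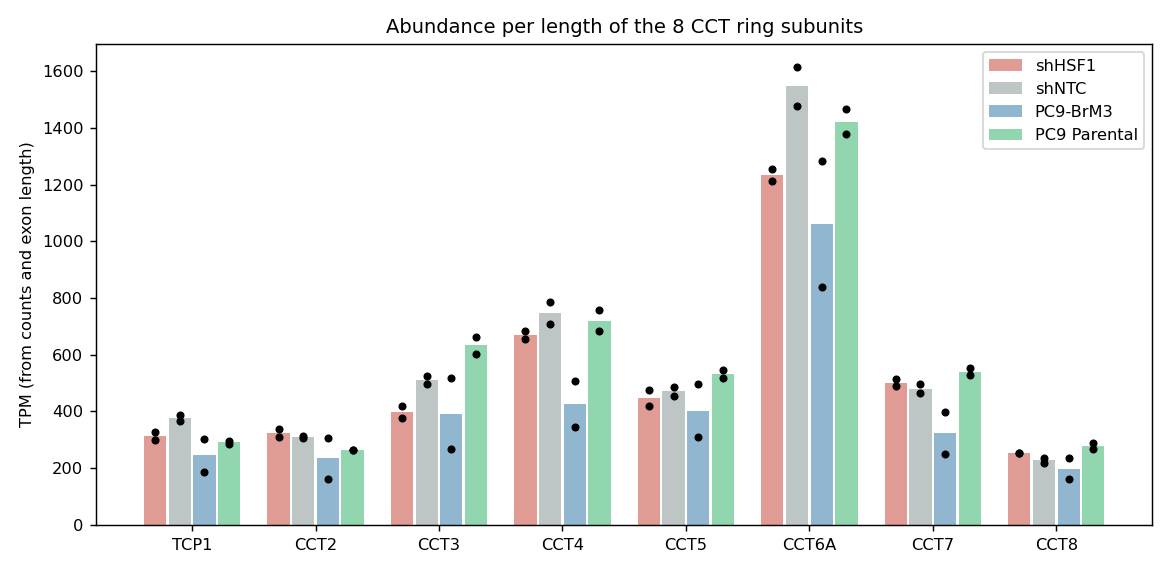
TPM of the 8 CCT subunits, with the bars of each gene in the order shHSF1, shNTC, PC9-BrM3 and PC9 Parental. Bars are means and points the 2 libraries; CCT6A is the tallest in every group, at 1234, 1546, 1061 and 1422 TPM.

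Between the subline and its parent, none of the 10 chaperonin genes passed the edgeR test, in which 7.14% of 17372 genes did (3.87% higher, 3.27% lower). At an unadjusted p under 0.05 there were 3 lower (CCT3, CCT4 and CCT7) and 0 higher, and DESeq2 called 0 in either direction. Under that unadjusted cut were 4368 of the 17372 genes, counting both directions. With direction ignored, the 3 of the 10 are therefore near the share of all genes, and all 3 were lower. The median log2 change of the 10 was -0.18, against 0.013 over all genes; without PC9-BrM3 replicate 2 it was -0.22, against -0.014. The libraries of PC9-BrM3 were below those of PC9 Parental without overlap for 7 of the 10, against 29.4% of all genes, and above them for 0, against 29.6%.

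CCT7 was at 362.4 and 356.7 CPM in PC9-BrM3, against 504.3 and 494.6 CPM in PC9 Parental. Its libraries separated by a wide margin (log2 change -0.47 ± 0.14, SE, edgeR adjusted p = 0.103), and its value without PC9-BrM3 replicate 2 was -0.48. CCT4 was at 365.7 and 390.0 CPM in PC9-BrM3, against 515.2 and 534.6 CPM in PC9 Parental. Its log2 change was -0.47 ± 0.14 (SE, edgeR adjusted p = 0.109), and -0.54 without that library. CCT3 was at 530.6 and 429.6 CPM in PC9-BrM3, against 646.5 and 663.0 CPM in PC9 Parental. Its log2 change was -0.45 ± 0.17 (SE, edgeR adjusted p = 0.169), and -0.32 without that library. These 3 subunits were low in both PC9-BrM3 libraries. With replicate 1 left out in place of replicate 2, the log2 changes were -0.48 for CCT7, -0.43 for CCT4 and -0.61 for CCT3. The median over all genes was -0.02 in that fit.

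The remaining subunits differed less. CCT8 was at 200.9 and 214.4 CPM in PC9-BrM3, against 237.0 and 238.9 CPM in PC9 Parental (edgeR adjusted p = 0.416). CCT5 was at 737.5 and 723.1 CPM in PC9-BrM3, against 804.1 and 796.0 CPM in PC9 Parental (edgeR adjusted p = 0.599). CCT6A was at 1276 and 1311 CPM in PC9-BrM3, against 1432 and 1425 CPM in PC9 Parental (edgeR adjusted p = 0.588). For these 3 the PC9-BrM3 libraries were the lower ones without overlap. Without PC9-BrM3 replicate 2 the log2 changes were -0.26 for CCT8, -0.13 for CCT5 and -0.18 for CCT6A. TCP1 was at 382.4 and 368.8 CPM in PC9-BrM3 and 374.1 and 364.6 CPM in PC9 Parental. CCT2 was at 338.0 and 282.9 CPM in PC9-BrM3 and 305.9 and 283.8 CPM in PC9 Parental. Neither TCP1 nor CCT2 separated the groups, and without PC9-BrM3 replicate 2 their log2 changes were 0.03 and 0.18.

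For the mitochondrial pair PC9-BrM3 replicate 2 decided the values. HSPE1 was at 63.3 and 11.2 CPM in PC9-BrM3 (3488 and 388 counts), against 66.0 and 66.9 CPM in PC9 Parental (3868 and 3661 counts). Its log2 change was -0.83 ± 0.71 (SE, edgeR adjusted p = 0.498), -0.09 without PC9-BrM3 replicate 2 and -2.56 without replicate 1. HSPD1 was the higher one in PC9-BrM3 replicate 2, at 913.5 and 1210 CPM in PC9-BrM3, against 1155 and 1214 CPM in PC9 Parental (edgeR adjusted p = 0.638). Without PC9-BrM3 replicate 2 the log2 change of HSPD1 was -0.39, and without replicate 1 it was 0.03. The counts of HSPD1 per count of HSPE1 were 14.4 and 108 in PC9-BrM3 and 17.5 and 18.2 in PC9 Parental.

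The pseudogene loci were not uniformly lower in PC9-BrM3 replicate 2. HSPE1P4 was at 12.95 and 9.35 CPM in PC9-BrM3, against 13.0 and 13.4 CPM in PC9 Parental. HSPE1P2 was at 11.5 and 20.3 CPM in PC9-BrM3, against 11.2 and 12.02 CPM in PC9 Parental. All 26 loci together had 26.3 and 30.6 CPM in PC9-BrM3, and 25.8 and 27.4 CPM in PC9 Parental. The summed HSPE1 family in PC9-BrM3 replicate 2 was 41.8 CPM, against 89.6 CPM in replicate 1.

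Without PC9-BrM3 replicate 2, in a fit where the lone PC9-BrM3 library is assumed to vary like the PC9 Parental libraries, 5 of the 10 genes were lower (CCT3, CCT4, CCT7, CCT8 and HSPD1), 0 were higher, and 5594 genes of 18190 were called in all (30.8%; 15.9% lower and 14.8% higher). HSF1 was at 52.8 and 50.7 CPM in PC9-BrM3 and 45.3 and 47.7 CPM in PC9 Parental (edgeR adjusted p = 0.531, and 0.244 without PC9-BrM3 replicate 2), so the subline comparison holds no change of HSF1 RNA that passed.

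Genes whose products hand proteins to CCT or regulate it were called in both directions in the knockdown, and the largest of their changes was in a cofactor. In this comparison edgeR called 22.2% of all genes tested higher and 23.5% lower, the shares to set beside the counts of each list. PDCL, a phosducin-like protein that works with CCT in assembling G protein beta-gamma dimers, was at 11.9 and 13.7 CPM in shHSF1 libraries, against 42.2 and 42.5 CPM in shNTC libraries. It fell without overlap (log2 change -1.73 ± 0.10, SE; edgeR adjusted p = 8.02e-07). In the subline PDCL was at 40.0 and 36.8 CPM in PC9-BrM3 and 36.9 and 36.2 CPM in PC9 Parental (edgeR adjusted p = 0.788, and 0.462 without PC9-BrM3 replicate 2). TXNDC9, another phosducin-like protein, fell in the knockdown as well (log2 change -0.23, edgeR adjusted p = 0.036), and the other 4 tested genes of that list of 6 did not pass. DESeq2 called 1 of the 6.

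Prefoldin, the hexamer that delivers actin and tubulin chains to CCT, had 1 gene higher and 1 lower of 6 tested. PFDN2 was at 69.9 and 73.0 CPM in shHSF1 libraries, against 53.6 and 53.4 CPM in shNTC libraries (log2 change 0.42, edgeR adjusted p = 0.000641). PFDN1 was at 53.2 and 51.1 CPM in shHSF1 libraries, against 65.4 and 60.02 CPM in shNTC libraries (log2 change -0.27, edgeR adjusted p = 0.0133). The list's median was -0.009. Of the CCT relatives, BBS12, a chaperonin-like protein of the Bardet-Biedl syndrome group, rose (14.1 and 15.9 CPM in shHSF1, 9.64 and 9.93 CPM in shNTC; edgeR adjusted p = 0.0016), and the other 3 tested genes, CCT6B, MKKS and BBS10, did not pass. CCT6B, a close relative of CCT6A found mainly in testis, was at 0.753 to 1.33 CPM across the 8 libraries.

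Genes for proteins that CCT folds, or is reported to fold, moved in both directions: 9 of 29 tested rose, 9 fell and 11 did not pass, with a median log2 change of -0.03. Over all genes tested, 22.2% were higher and 23.5% lower. ACTG1, the cytoplasmic gamma actin, was at 2729 and 2522 CPM in shHSF1 libraries, against 1573 and 1510 CPM in shNTC libraries (edgeR adjusted p = 9.48e-06), while ACTB, the beta actin, was at 4306 and 4119 CPM in shHSF1 and 4524 and 4222 CPM in shNTC. The tubulins TUBA1A (log2 change 0.64) and TUBB (-0.44) went in opposite directions (edgeR adjusted p = 0.000211 and 0.000207). STAT3, a transcription factor of cytokine signalling, rose (0.70, edgeR adjusted p = 4.34e-05). MLST8, a beta-propeller subunit of the mTOR complexes, fell, at 34.2 and 38.5 CPM in shHSF1 and 67.8 and 68.1 CPM in shNTC (-0.90, edgeR adjusted p = 1.35e-05). CDC20, an activator of the anaphase-promoting complex, also fell (-0.49, edgeR adjusted p = 0.000276). Of 4 tubulin cofactors tested, which act on tubulin after CCT, TBCB rose (0.30, edgeR adjusted p = 0.00955) and TBCD fell (-0.27, edgeR adjusted p = 0.0094).

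**Figure D5:**
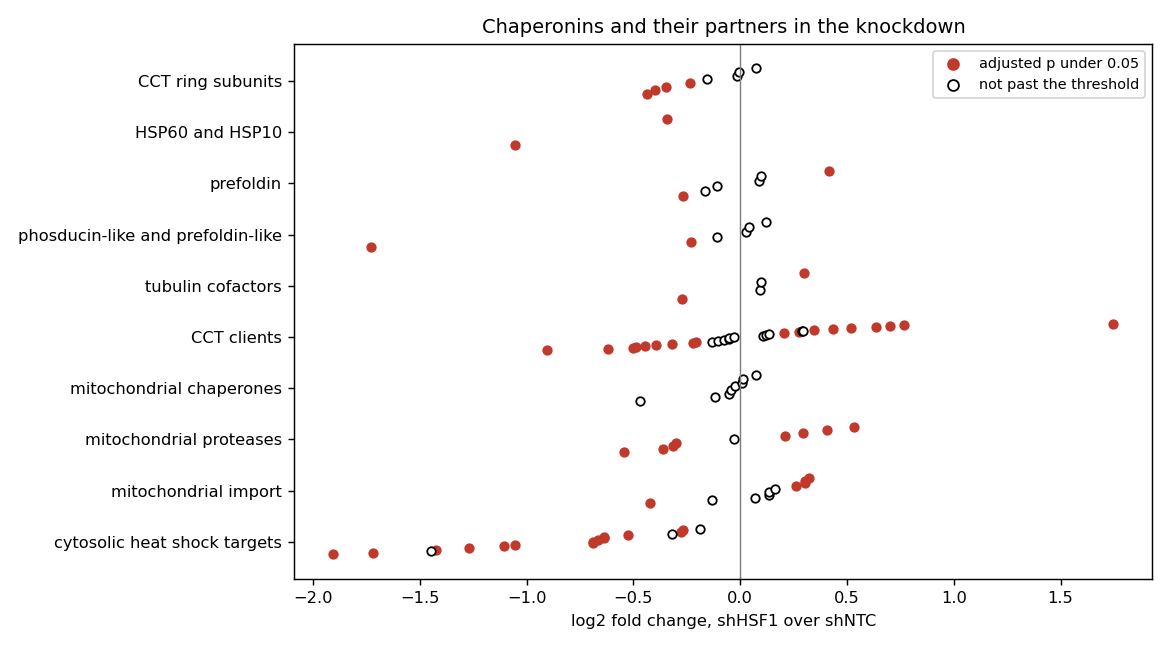
Log2 fold changes, shHSF1 over shNTC, of every tested gene in the chaperonin groups and in 8 lists of partners, 1 row a list and 1 point a gene. Filled points passed an adjusted p of 0.05; the 14 filled points of the last row lie left of 0, and the 8 mitochondrial chaperones are all open.

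Inside mitochondria, no chaperone tested beside HSPD1 and HSPE1 passed in the knockdown. Of 8 such genes, edgeR and DESeq2 each called 0, with 0 at an unadjusted p under 0.05, and the median log2 change was -0.03. Over all genes tested in the knockdown, edgeR called 22.2% higher and 23.5% lower, which applies to the protease and import counts too. HSPA9, the mitochondrial HSP70 (mortalin), was at 406.3 and 395.7 CPM in shHSF1 libraries and 421.2 and 410.0 CPM in shNTC libraries. TRAP1, the mitochondrial HSP90, was at 177.9 and 191.9 CPM in shHSF1 and 181.5 and 185.4 CPM in shNTC. The difference between these genes and HSPD1 or HSPE1 was not itself tested. Mitochondrial proteases were divided, with 4 higher and 4 lower of 9: AFG3L2 (0.41), CLPP (0.53) and PARL (0.29) rose, while OMA1 (-0.54), SPG7 (-0.36) and CLPX (-0.32) fell (edgeR adjusted p from 0.000342 to 0.00632). Of 10 protein import genes, 4 rose, among them TIMM50 (0.32), PMPCA (0.30) and TIMM44 (0.26), and TOMM20, an import receptor of the outer membrane, fell (-0.42; edgeR adjusted p from 0.00058 to 0.0078). In the subline comparison 0 genes of the prefoldin, phosducin-like, CCT relative, client, tubulin cofactor, mitochondrial chaperone, protease and import lists passed with edgeR. Under an unadjusted p of 0.05 were 8 of 29 client genes (7 higher and 1 lower) and 2 CCT relatives (1 higher and 1 lower). So were 1 phosducin-like gene and 1 mitochondrial chaperone, both lower. Of all genes, 4368 of 17372 were under that cut, counting both directions. The client genes are near that share only with direction ignored, as 7 of the 8 were higher. The median log2 change of the client genes was 0.16, against 0.013 over all genes. DESeq2 called 1 client gene and 1 mitochondrial chaperone. Without PC9-BrM3 replicate 2 only 1 PC9-BrM3 library is left, so calls within these lists are not counted in that fit.

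The cytosolic heat shock genes, written down as HSF1 targets and holding none of the 10 chaperonin genes, were lower for 14 of 17 tested and higher for 0, with a median of -0.69, further from 0 than that of the chaperonin genes (-0.29). Over all genes tested in the knockdown, 23.5% were lower and 22.2% higher. SERPINH1, a collagen chaperone (-1.90), HSPA4L (-1.42) and HSPH1 (-1.27), both of the HSP110 family, had the smallest p (edgeR adjusted p = 2.08e-07, 2.24e-07 and 9.94e-07). HSPE1, at -1.05, lay within the range of that list (-1.90 to -0.19), and so did HSPD1, TCP1, CCT3, CCT4 and CCT6A. The list was chosen with results on these libraries known, so its direction is no independent evidence. A 3-unit heat shock element was found in the promoter windows of 6 of the 16 genes of this list that had one. In the subline, 1 of 18 passed: CRYAB, a small heat shock protein, at 0.817 and 1.30 CPM in PC9-BrM3, against 0.154 and 0.0731 CPM in PC9 Parental (edgeR adjusted p = 0.0264, and 0.000278 without PC9-BrM3 replicate 2). Calls within this list are likewise not counted in the fit without that library.

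Head-to-head neighbours were annotated for TCP1, CCT3 and CCT4 too. MRPL18, a mitochondrial ribosomal protein gene that starts 210 bases from TCP1 on the other strand, was lower with the hairpin (log2 change -0.24 ± 0.07, SE; edgeR adjusted p = 0.021), as TCP1 was. COMMD1, which starts 54 bases from CCT4, did not pass (-0.26 ± 0.15, edgeR adjusted p = 0.192). Neither did TSACC, which starts 234 bases from CCT3 (-0.93 ± 0.44, edgeR adjusted p = 0.117). TSACC had only 7 to 30 counts a library, so its result decides little. HSPD1 and HSPE1 share 281 bases on opposite strands and TCP1 and ACAT2 share 454, which the strand-aware counting keeps apart.

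Across the 8 libraries, with each lane's mean removed, the chaperonin genes did not all vary together. The closest pairs by Pearson r of log2 CPM were CCT3 with CCT5 (0.910), CCT4 with CCT7 (0.889), TCP1 with CCT6A (0.886) and CCT3 with HSPE1 (0.879). This order rests on PC9-BrM3 replicate 2: without it the closest were CCT3 with HSPD1 (0.969), CCT3 with CCT6A (0.967), TCP1 with HSPE1 (0.964, against 0.462 with it) and CCT6A with HSPE1 (0.946). HSPD1 and HSPE1 correlated at 0.069, and HSPE1 stood at rank 4756 of 9753 genes by likeness to HSPD1, with PC9-BrM3 replicate 2 included; without it r was 0.762 and the rank 1687. The 5 genes most like the mean of the CCT subunits were HEATR1, SLC33A1, DDX1, RCBTB1 and HSP90AB2P, at r from 0.991 to 0.993. Without PC9-BrM3 replicate 2 they were DFFA, TSN, WDR70, DDX1 and SEPTIN6, so 1 gene was named both times. The 5 most like HSPD1 were HSP90AB3P, CTBP2, FXR1, RBMX2 and FAM171B, at r from 0.980 to 0.993; none of these was among the 5 without PC9-BrM3 replicate 2, which were CALCOCO2, GTF3C3, AGBL5, ERLIN1 and WDR70. These values describe libraries that share a lane and a design of 4 group means, and have no test.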

How the data were processed

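The deposited values of the 8 RNA-seq libraries are raw counts, 1 for each gene. The file headers name featureCounts 1.6.1, run by the authors on reverse-strand exon reads with Ensembl genes of GRCh37; by its default, reads that map to several places or to several genes were not counted. The submitters' processing notes also list Trim Galore, HISAT2 and DESeq2, without versions or roles.

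Each comparison was fitted on its own 4 libraries over all genes with edgeR 4.0.16 (R 4.3.3): filterByExpr (minimum count 10, total 15), TMM, robust quasi-likelihood F test, Benjamini-Hochberg adjustment over all genes tested, threshold 0.05. DESeq2 1.42.0 was an alternative, beside other scalings, no filter, a replicate block, all 8 libraries in 1 fit and each library left out. The edgeR test gives no SE, so each SE is an approximate value, the size of the log2 change divided by the square root of F. TPM were made from the counts and the exon length in the files. The code was tested on simulated data. Symbols were found for 52181 of 63677 IDs. Replicates of every group differed by more than sampling noise.

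The members and the lists were chosen with earlier results of these data known. The text names all members, HSF1, at most 3 genes per list, direction and comparison by smallest p, the 5 genes most like HSPD1 and the CCT mean, and loci that bear on a member's count. Genes named beside these (ACTB, CCT6B, MKKS, BBS10, HSPA9, TRAP1 and cell type markers) were given for context with values seen.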

Additional observations from a re-analysis of the deposited data

How the results depend on the processing

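In the knockdown, the 6 chaperonin genes stayed lower under DESeq2 (6605 genes called in all) and 0 were higher under every alternative run except upper-quartile factors, where 1 (CCT8) was higher and CCT2 and CCT7 turned to 0.06 and 0.054. With all 8 libraries in 1 fit, 3873 of 18122 genes were called (1639 higher and 2234 lower) and 3 members were lower. CCT4, HSPD1 and HSPE1 kept their direction but not the call (edgeR adjusted p = 0.0931, 0.103 and 0.244), and the mitochondrial chaperonin had 0 of 2 called. The log2 change of HSPE1 was -1.08 ± 0.59 (SE) there, against -1.05 ± 0.08 with the 4 libraries of the knockdown. For HSPD1 it was -0.36 ± 0.14, against -0.34 ± 0.06. That fit also holds the PC9-BrM3 libraries, where HSPE1 was at 63.3 and 11.2 CPM and HSPD1 at 913.5 and 1210 CPM. In the subline comparison alone the SE was 0.71 for HSPE1 and 0.19 for HSPD1. The cause of the wider SE was not tested. In the fit of all 8 libraries client calls were 5 higher and 5 lower, and import calls 0 in either direction. With a library left out, 6044 to 6514 genes were called, 5 to 7 members were lower, CCT2 ran from -0.051 to 0.04 and CCT7 from -0.03 to 0.008. In the subline comparison the genes called were 3159 with no filter, 2203 with DESeq2 and 3813 of 18122 with all 8 libraries. With all 8 libraries 1991 genes were higher and 1822 lower, and 3 members were lower (CCT3, CCT4 and CCT7). With a library left out, genes called ran from 402 (without PC9 Parental replicate 1) to 9228 (without PC9-BrM3 replicate 1), members lower from 0 to 5, TCP1 from 0.0 to 0.034, CCT2 from -0.058 to 0.181 and HSPD1 from -0.391 to 0.031. The summed CCT TPM was 3660 in shHSF1, 4116 in shNTC and 5154 in PC9 Parental with upper-quartile factors, and 4786, 5490 and 5814 with transcript length, chosen after seeing the data, as was leaving out the mitochondrial genome. The libraries share only a replicate number (correlation of deviations 0.058 in the knockdown and -0.041 in the subline): a replicate block gave 8015 and 1328 genes called and changed no call of a member. With 388 counts, HSPE1 in PC9-BrM3 replicate 2 had the lowest count of any member.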
